A study of Mus musculus with 49 samples.

Results

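In mouse hippocampus, 9 genes of the complement cascade and of engulfment signalling were followed: C1qa, C1qb, C1qc, C2, C3, C4b, Serping1, Cd47 and Sirpa. They were picked by symbol, with earlier results of these data known. Of several rows with a symbol the row with the highest mean was read. The 9 genes are named by 15 of the 42521 rows of the deposited expression table. RNA came from 49 C57BLKS/J mice of 3 months, 1 mouse per library by the series' design text, with 9 libraries in the group HFD-C and 8 in each of the groups CD-C, HFD-F, CD-F, FFD-C and FD-C. The labels do not spell these codes out, and they name the same strain for every group and no genotype. Because the title of the series is about obese mothers and a fibre-rich diet, the first part of a code was taken for the dam's diet and the last letter for that of her offspring, so that CD-C is the control of both codes. Every group holds 4 mice marked XX and 4 marked XY in their titles, except HFD-C with 5 marked XY. Titles also carry 20 prefixes, such as HFD2.2, which may mark litters or dams, although no label states it; CD-C and CD-F share 0 of them, and HFD-C and HFD-F share 3.

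Complement is a cascade of proteins that tags material for removal. C1q, built from the products of C1qa, C1qb and C1qc, binds the target; its partner proteases then cleave C4 and C2, whose fragments cleave C3, and C3 fragments are read by receptors on phagocytes. In the brain C1q is made mainly by microglia, the resident macrophages, and C1q and C3 are known for tagging synapses in development and disease. Serping1 encodes the C1 inhibitor, which stops the proteases of the first step. Cd47 is a surface protein that signals against engulfment, and Sirpa is its receptor, found on macrophages and also on neurons.

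Expression was read as FPKM, fragments scaled by transcript length and library size, so that levels of different genes can be set side by side. Columns summed to between 1220340 and 1340551 FPKM; read depth is not given in the sources used here, so no counting error can be stated. Neuronal markers were abundant in every library (7 genes, summed 8008 to 11822 FPKM), markers of the hippocampal dentate granule cells (5 genes, 106 to 328) and CA1 pyramidal cells (4 genes, 174 to 658) were present in each, and those of astrocytes and microglia were present in every group. The albumin transcript Alb, a liver product, stood at 24.3 to 50.1 FPKM in CD-C replicates 2, 5, 7 and 8 and at 0 to 0.145 in the other 45 libraries, and results that rest on CD-C are given without these 4 libraries where that matters. Differences are on the scale log2(FPKM + 0.5), with limma's standard error (SE) and with p adjusted over the 16029 rows whose mean reached 0.5 FPKM; an adjusted p under 0.05 counted as a call.

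The mean levels over 49 libraries put the 3 C1q genes first. C1qa stood at 118 FPKM, C1qb at 113 and C1qc at 111, followed by Sirpa at 102 and Cd47 at 50.3. The row of C4b stood at 27.7, C3 at 4.05, Serping1 at 2.95 and C2 at 0.289 FPKM. Within a library the order was fixed for some neighbours and open for others: Sirpa lay above Cd47 in 49 of 49 libraries, C4b above C3 in 49 and Serping1 above C2 in 49, and Cd47 lay above C4b in 45. C1qa lay above C1qb in 40 libraries and C1qb above C1qc in 30, at mean log2 ratios of 0.07 (SD 0.088) and 0.02 (SD 0.098). C1qc was above Sirpa in 25 libraries and C3 above Serping1 in 26, so that neither pair could be ordered beyond the spread between mice.

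Position groups some of these genes on GRCm38.p6. C1qb (chr4:136880126-136886200), C1qc (chr4:136889801-136892936) and C1qa (chr4:136895916-136898844) are neighbours on chromosome 4. Chromosome 17 holds C4b (chr17:34728139-34743902), the annotated transcribed pseudogene C4a (chr17:34809092-34823460), C2 (chr17:34862602-34882100) and, farther along, C3 (chr17:57203967-57228136). Serping1 (chr2:84765360-84775444) and Sirpa (chr2:129591042-129632228) lie on chromosome 2, and Cd47 (chr16:49851328-49912503) on chromosome 16. The row read for C4b also names C4a, a near-identical copy, so its value covers both and is uncertain for C4b alone.

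Promoter sequence from the RefSeq table (GRCm38.p6) was matched for 4 of the 9 genes: C1qb, C1qc, C3 and Cd47. Shown are the 250 bases before the start site of C1qb (minus strand, chr4:136886201-136886450) and C1qc (minus strand, chr4:136892915-136893164), because these transcripts rose and fell together over mice, and of C3 (minus strand, chr17:57228137-57228386), because it did not follow them. The window of C1qc reaches into the gene span given above, which ends at base 136892936. The windows of Cd47, not shown, lie inside its span. Start sites of these 2 genes are thus not the ends of their spans. Letters in capitals mark a motif match.
C1qb: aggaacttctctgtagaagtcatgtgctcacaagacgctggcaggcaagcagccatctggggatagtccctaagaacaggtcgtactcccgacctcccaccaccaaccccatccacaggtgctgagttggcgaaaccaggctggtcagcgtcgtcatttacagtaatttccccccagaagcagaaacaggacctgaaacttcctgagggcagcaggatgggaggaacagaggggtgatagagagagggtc
C1qc: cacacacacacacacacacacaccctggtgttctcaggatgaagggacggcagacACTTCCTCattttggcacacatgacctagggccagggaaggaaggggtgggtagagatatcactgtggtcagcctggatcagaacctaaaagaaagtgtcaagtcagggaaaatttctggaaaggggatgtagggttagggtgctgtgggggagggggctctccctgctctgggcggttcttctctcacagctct
C3: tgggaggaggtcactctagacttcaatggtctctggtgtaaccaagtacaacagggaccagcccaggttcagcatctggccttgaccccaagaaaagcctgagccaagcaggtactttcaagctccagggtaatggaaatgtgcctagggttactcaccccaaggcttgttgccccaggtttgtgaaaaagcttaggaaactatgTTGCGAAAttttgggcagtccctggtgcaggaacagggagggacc
The capitals in C1qc are the reverse complement of GAGGAAGT, letters of the myeloid factor PU.1, at bases -195 to -188 counted from the start site. Those in C3 match TTGCNNAA, letters of the C/EBP factors, on the forward strand at -45 to -38. Both strands of all 32851 windows in the table were searched in the same way: GAGGAAGT was found in 2.44% of them and TTGCNNAA in 9.56%. C1qb held neither, and none of the 4 genes held the interferon response motif (2.98% of windows), the AP-1 letters TGANTCA (6.75%) or the core promoter letters TATAAA (12.4%) in these windows. The motifs can overlap one another, and a match is a string of letters, not a measured site.

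**Figure D1:**
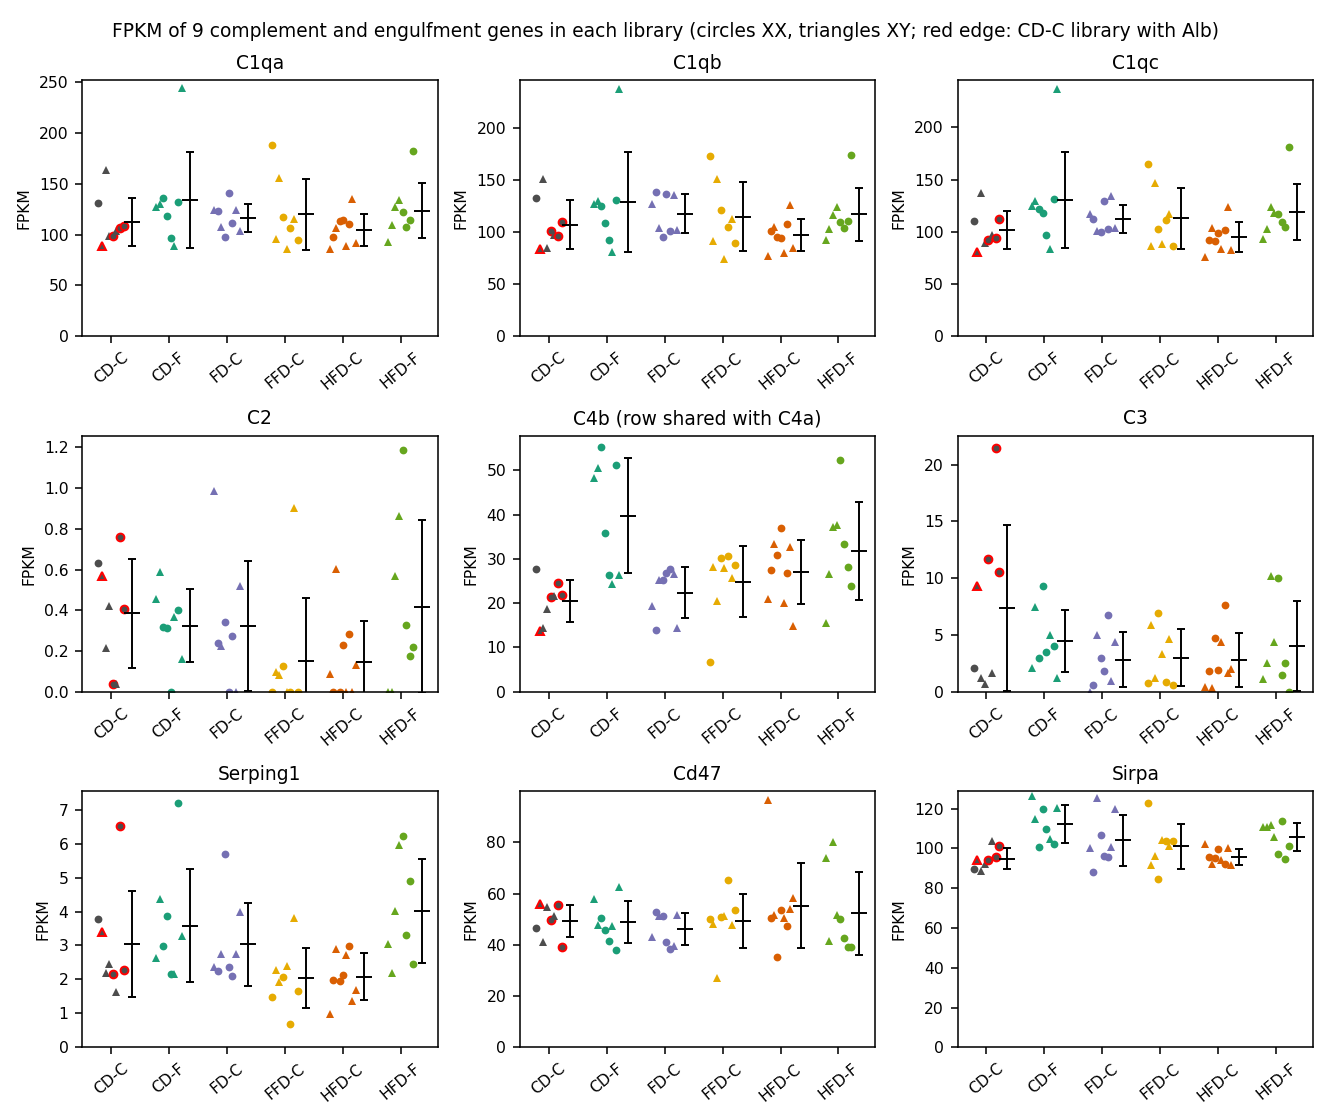
FPKM of each of the 9 genes in every library by group; circles are XX and triangles XY mice, horizontal bars with whiskers are mean ± SD, and a red edge marks the 4 CD-C libraries with Alb. C4b and Sirpa sit higher in CD-F than in CD-C, Serping1 higher in HFD-F than in HFD-C, and the 4 red-edged points are the highest of CD-C for C3.

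The first question was whether the offspring code F differs from C when the dam's code is CD. In CD-F, C4b and Sirpa were higher than in CD-C. They were 2 of the 8 tested members, against 13.4% of all 16029 rows called in this comparison (4.54% higher and 8.88% lower), and C2 was too low to test. The other 6 tested members did not pass, and of these C1qc, C1qa, C1qb and Serping1 had positive differences and C3 and Cd47 negative ones.

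C4b, the source of the fragment that anchors the C3-cleaving enzyme on its target, showed the largest difference of the members. In CD-C its row ran from 13.8 to 27.7 FPKM with a median of 21.4. In CD-F it ran from 24.2 to 55.3 with a median of 42.0. The groups overlapped, but 5 of the 8 CD-F libraries lay above the highest CD-C library and all 8 lay above the CD-C mean. Means were 39.8 ± 12.95 in CD-F and 20.5 ± 4.75 in CD-C (SD, n = 8 each), a ratio of 1.94. The log2 difference was 0.91 (SE 0.239, limma adjusted p = 0.00792).

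Inside CD-F, C4b fell into high and low libraries. Replicates 1, 2, 3 and 7 stood at 48.2 to 55.3 FPKM and replicates 5, 6 and 8 at 24.2 to 26.4, with replicate 4 between them at 35.7. Both libraries of prefix CD1.5 were high (mean 49.4), while prefixes CD2.5X (26.4 to 55.3) and CD2.6 (24.2 to 51.1) held both kinds. Each of the 3 prefix means of CD-F, the lowest being 33.9, was above each of the 4 of CD-C, the highest being 23.2. With 1 mean per prefix and group, an alternative added after the data were seen, the difference was 0.91 with an adjusted p of 0.0671. Without the 4 CD-C libraries with Alb it was 0.86 and the adjusted p 0.0728, so the size was kept and the call was not; C4b itself stood at 13.8 to 24.6 FPKM in those 4 libraries and at 14.4 to 27.7 in the other 4.

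Which row is read matters for C4b. Its symbol stands on 4 rows, with means of 27.7, 1.72, 1.22 and 0.699 FPKM, and all but the second name C4a as well. Summing all 4, also added after the data were seen, gave 0.94 (adjusted p = 0.00938). The single row that names C4b alone was listed at 0 in 35 of 49 libraries and gave 0.15 (adjusted p = 0.935).

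Sirpa, the receptor for Cd47, had a small and even difference. Its level ran from 88.4 to 104 FPKM in CD-C (median 94.2) and from 101 to 126 in CD-F (median 112). Of the 8 CD-F libraries, 6 lay above the highest of CD-C, and all 8 above the CD-C mean. Means were 112 ± 9.46 and 94.9 ± 5.24 (SD, n = 8 each), a log2 difference of 0.24 (SE 0.0617, limma adjusted p = 0.00674). Removing each library's trend with transcript GC content lowered it to 0.14 (adjusted p = 0.126), and 1 mean per prefix gave 0.23 (adjusted p = 0.0829), so that the call was lost in both. Transcripts of Sirpa hold 54.5% GC.

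**Figure D2:**
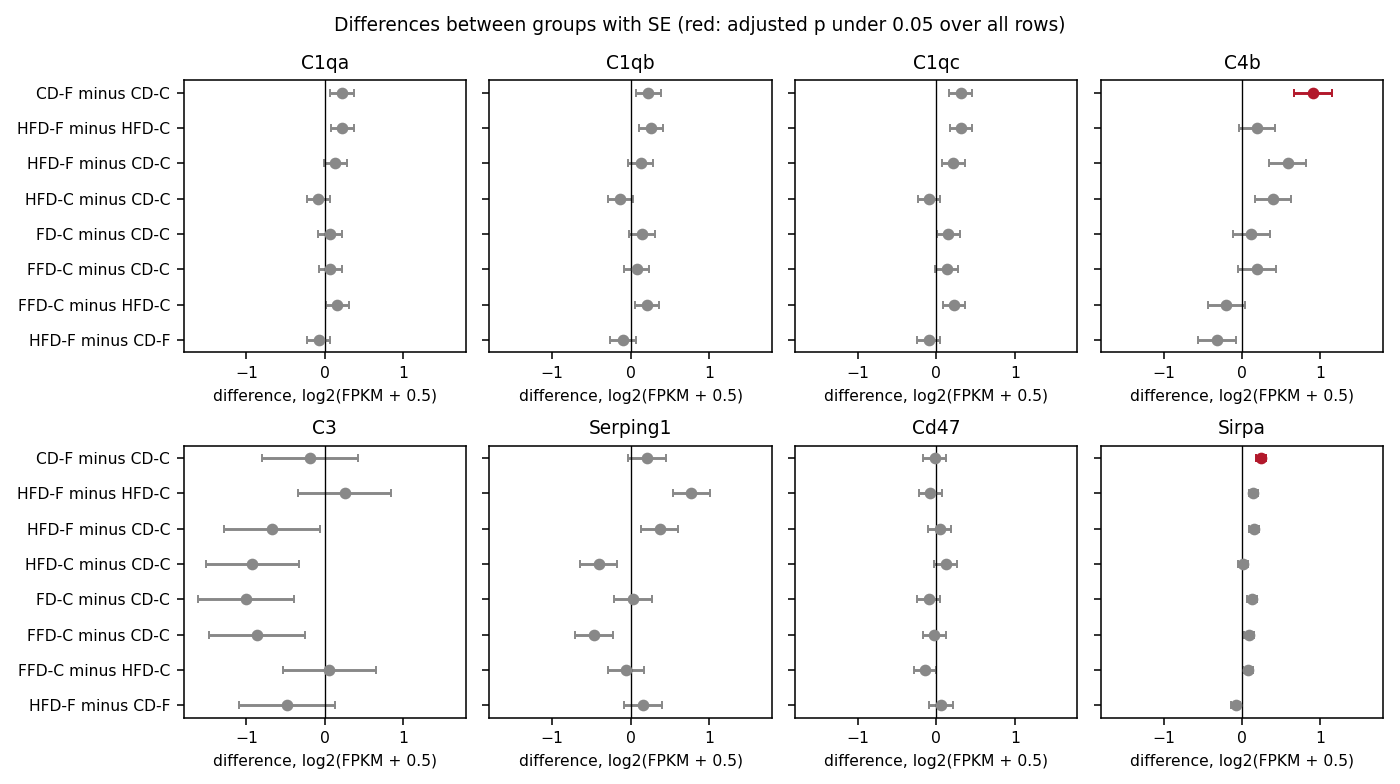
Differences between groups with SE on the log2(FPKM + 0.5) scale for the 8 tested genes; red points have an adjusted p under 0.05 over all rows. The red points are C4b (0.91) and Sirpa (0.24) in CD-F minus CD-C.

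The C1q genes, the recognition unit of the cascade, were not called. In CD-C C1qa ran from 89.1 to 164 FPKM (median 105) and in CD-F from 88.5 to 244 (median 129). The top of CD-F was a single mouse: replicate 8 had 244 FPKM of C1qa, 237 of C1qb and 237 of C1qc, against at most 136 of C1qa in the other 7. Log2 differences were 0.22 for C1qa (SE 0.152, limma adjusted p = 0.386), 0.22 for C1qb (adjusted p = 0.393) and 0.31 for C1qc (SE 0.146, adjusted p = 0.158). Serping1, at 3.58 ± 1.66 against 3.05 ± 1.57 FPKM, had 0.21 (adjusted p = 0.623). Cd47, the signal against engulfment, stood at 48.9 ± 8.19 and 49.3 ± 6.40, a difference of -0.02 whose sign changed with the scaling (0.00 with each library centred on its median) and with the GC trend removed (0.16).

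Markers of cell types moved in part with these values. The summed level of 12 microglial markers had a median of 1033 FPKM in CD-C (891 to 1535) and 1422 in CD-F (1082 to 1567). The receptor Csf1r made up most of it, and Sall1 and Siglech, which define microglia more narrowly, had means of 3.51 and 1.43 FPKM over all libraries. The row read for Trem2 was listed at 0 in 13 libraries and the other 11 microglial markers in none. A second row with the symbol Trem2, not read, had a mean of 2.47 FPKM and ran from 1.47 to 5.37. The astrocyte sum (8 genes) had medians of 3594 and 3710, and the neuron sum 9938 and 9691. Their part in the C4b and Sirpa results was not tested, and in bulk tissue more cells of a type and more RNA per cell cannot be told apart.

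The same question under the maternal code HFD gave no call. Of the 8 tested members, 0 passed in HFD-F against HFD-C with limma, where 1.67% of all rows were called. An unadjusted p under 0.05 was found for 3 members, Serping1, Sirpa and C1qc, and for 2655 of all 16029 rows. Serping1 came nearest. Its level ran from 0.993 to 2.98 FPKM in HFD-C, with a median of 1.99, and from 2.18 to 6.22 in HFD-F, with a median of 3.66. Of the 8 HFD-F libraries, 6 lay above the highest of HFD-C and all 8 above its mean. Means were 4.01 ± 1.54 (n = 8) and 2.08 ± 0.688 (SD, n = 9), a ratio of 1.93 and a log2 difference of 0.78 (SE 0.234, adjusted p = 0.0677). In 17 fits that left out 1 library of these groups, the adjusted p ran from 0.0408 to 0.171. Only the fit without HFD-F replicate 2, the lowest of its group at 2.18 FPKM, gave a call.

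Here mice of both groups can be set side by side within a prefix. Serping1 was higher in HFD-F in all 3 shared prefixes, by 0.23 in HFD2.2, 0.63 in HFD2.5 and 1.28 in HFD3.2 on the log2 scale, with 1 HFD-C library in each. C4b did not keep a direction: the differences were -0.84, 0.47 and 0.01 in the same order. C1qa had -0.19, 0.25 and -0.07, and Sirpa 0.15, 0.24 and 0.02. In each shared prefix the mark also differs between the groups: the HFD-F libraries of HFD2.2 and HFD2.5 are XY and those of HFD3.2 XX, while the HFD-C library is XX, XX and XY. Group and mark cannot be told apart inside a single prefix. A fit of these 11 libraries with a term for prefix and for mark, added after the data were seen, gave 0.86 for Serping1 (SE 0.273, adjusted p = 0.986).

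**Figure D3:**
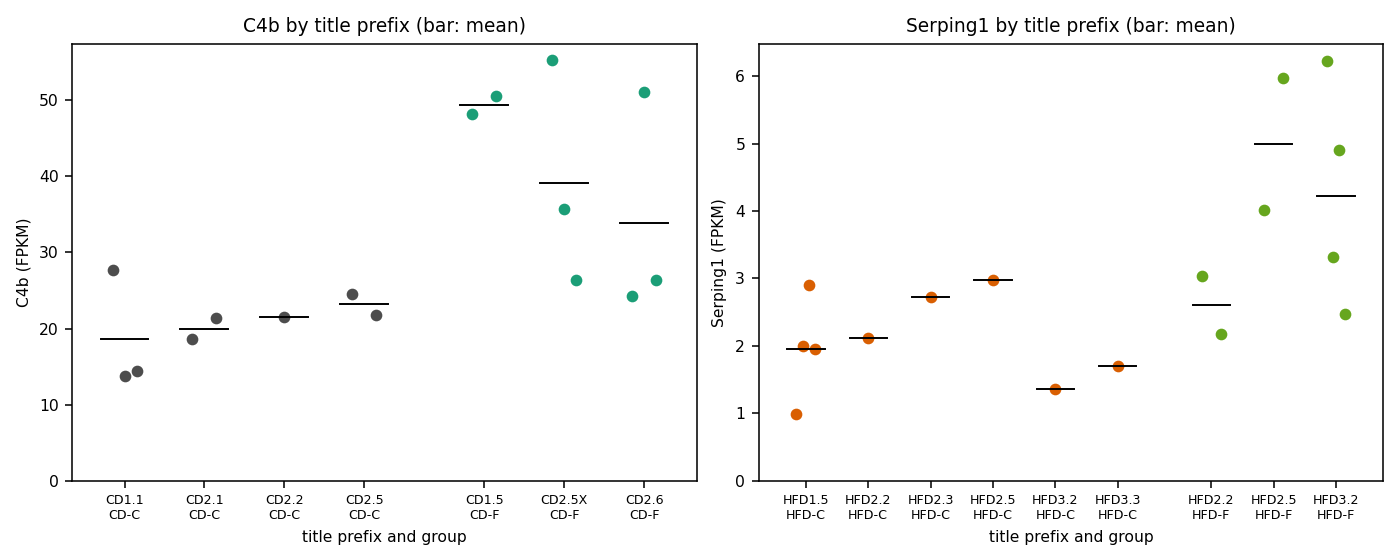
FPKM of C4b in CD-C and CD-F (left) and of Serping1 in HFD-C and HFD-F (right) by title prefix; points are libraries and bars the mean of a prefix. All 3 CD-F prefix means of C4b lie above the 4 of CD-C; HFD2.2, HFD2.5 and HFD3.2 appear in both HFD groups, with the HFD-F mean of Serping1 higher in each.

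The remaining members of this comparison had smaller differences for their spread. C1qc stood at 119 ± 26.9 in HFD-F and 94.7 ± 14.2 in HFD-C (0.31, SE 0.142, adjusted p = 0.261), and Sirpa at 106 ± 7.24 and 95.8 ± 3.99 (0.14, SE 0.060, adjusted p = 0.213). C4b had 31.8 ± 11.03 and 27.1 ± 7.24 FPKM (0.19, adjusted p = 0.744). Again the top C1q values were those of 1 mouse, HFD-F replicate 8, with 182 FPKM of C1qa against at most 134 in the other 7. The fibroblast markers (7 genes, none at 0 in any library) had a median sum of 128 FPKM in HFD-F (70.5 to 350) and 83.1 in HFD-C (49.6 to 155). Igf2 and Pdgfra made up most of it, with means of 89.0 and 24.45 FPKM over all libraries. The collagen genes Col1a1 and Col3a1 and the gene Lum had means of only 0.510 to 0.617 FPKM. Medians of other marker sums were also higher in HFD-F, at 15.7 against 8.02 FPKM for border macrophages (7 genes), 1101 against 192 for choroid plexus (7 genes) and 1388 against 1101 for microglia (12 genes), with ranges that overlapped. Ttr, with a mean of 2219 FPKM over all libraries, made up most of the choroid plexus sum. The part of the cell types named here in the Serping1 difference was not tested.

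Whether the difference by offspring code depends on the dam's code was tested as an interaction. No row passed with limma (0% of 16029, with 441 at an unadjusted p under 0.05). C4b had the largest value of the members, -0.72 (SE 0.333, unadjusted p = 0.037, adjusted p = 0.9998), Serping1 had 0.57 (SE 0.336) and Sirpa -0.10 (SE 0.086), both with the same adjusted p. The C4b and Sirpa calls under CD are therefore not shown to differ from the values under HFD.

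The maternal code alone gave no call among the members. Against CD-C, 0 of the 8 members passed with limma in HFD-C, in FFD-C or in FD-C. In these comparisons 0%, 0.00624% and 0.2% of all rows were called. In the same order, 0, 0 and 1 members had an unadjusted p under 0.05, and 379, 528 and 1529 of all 16029 rows. In FFD-C against HFD-C 0 passed as well (0% of rows, 956 at an unadjusted p under 0.05). C4b stood at 27.1 ± 7.24 FPKM in HFD-C, 22.4 ± 5.67 in FD-C, 24.8 ± 8.01 in FFD-C and 20.5 ± 4.75 in CD-C, and its difference of HFD-C from CD-C was 0.39 (SE 0.232, adjusted p = 1). Sirpa in FD-C (104 ± 12.7 against 94.9 ± 5.24) was the 1 member with an unadjusted p under 0.05 (0.12, adjusted p = 0.523). Serping1 was at 2.08 ± 0.688 FPKM in HFD-C and 2.04 ± 0.892 in FFD-C, against 3.05 ± 1.57 in CD-C, with differences of -0.41 and -0.47 (adjusted p = 1 and 0.9995).

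HFD-F can also be set against the control of both codes and against CD-F. Against CD-C, 2.7% of rows and 0 members were called with limma. C4b had 0.58 (SE 0.239, adjusted p = 0.189) and Sirpa 0.15 (SE 0.0617, adjusted p = 0.175). These 2 members had an unadjusted p under 0.05, like 2693 of all 16029 rows. Against CD-F, 0% of rows were called, with 1325 at an unadjusted p under 0.05, and 0 members. These comparisons share CD-C or CD-F libraries with the ones above, so they add no independent count.

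Over all 6 groups at once, limma's F test called C4b (adjusted p = 0.0414), Serping1 (0.0426) and Sirpa (0.0263), 3 of the 8 members where 12% of rows were called. Group means of Serping1 spanned 2.04 FPKM in FFD-C to 4.01 in HFD-F, those of C4b 20.5 in CD-C to 39.8 in CD-F, and those of Sirpa 94.9 in CD-C to 112 in CD-F. C1qa (adjusted p = 0.675), C1qb (0.549), C1qc (0.271), C3 (0.696) and Cd47 (0.888) did not pass. Each of the 3 calls was lost in some fits that left out 1 library: Sirpa without CD-F replicate 1 or 4 (adjusted p = 0.0689 and 0.063), C4b without CD-C replicate 2, 3, 4, 5 or 8, CD-F replicate 1, 2, 3, 4 or 7, FD-C replicate 2 or 8 or HFD-F replicate 3, 4, 5 or 6 (0.0505 to 0.103), and Serping1 without CD-F replicate 1, 2, 4 or 7, FFD-C replicate 1, 3, 4, 6 or 8, HFD-C replicate 1, 2, 4, 5, 8 or 9 or HFD-F replicate 3, 4, 5 or 7 (0.0508 to 0.0785).

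C3, the central component of the cascade, was set apart by 4 control libraries. In CD-C replicates 2, 5, 7 and 8 it stood at 9.33, 11.7, 21.5 and 10.6 FPKM, and in replicates 1, 3, 4 and 6 at 2.098, 1.21, 0.715 and 1.68. The 4 high libraries are those with Alb, and they shared no value of C3 with the rest of their group. Liver markers (6 genes, Ttr aside) summed to 0.318 to 158 FPKM in CD-C and to 0.258 to 1.47 in the other groups; Alb was listed at 0 in 33 of 49 libraries. In the other 5 groups C3 ran from 0 to 10.2 FPKM, with a median of 2.57, and 3 of these 41 libraries lay above 9.33.

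The comparisons of C3 with CD-C turn on those libraries. With all of them, the log2 differences were -0.92 for HFD-C, -1.01 for FD-C, -0.86 for FFD-C, -0.67 for HFD-F and -0.19 for CD-F (SE 0.596 to 0.613, limma adjusted p from 0.632 to 1). Without the 4 libraries they were 0.44, 0.37, 0.52, 0.71 and 1.19, again with none called. None of the other members separated in this way: Serping1 stood at 2.15 to 6.51 FPKM in the 4 libraries and 1.63 to 3.77 in the other 4 of CD-C, and Sirpa at 94.1 to 101 and 88.4 to 104. Among the other complement genes, picked after their values were seen, C9 was listed above 0 in those 4 libraries alone (0.0158 to 0.0480 FPKM), and C8a stood at 0.183 to 1.09 there against 0 to 0.112 in the other 4 of CD-C. C9 and C8a belong to the membrane attack complex and are known as liver products. Cfb (2.751 to 3.365 against 1.934 to 2.485 FPKM) also stood higher in these 4 than in the other 4 of CD-C. So did Csmd3 (21.02 to 21.92 against 11.81 to 20.58), Cfd and C8b, the last 2 near 0. The terminal components C7 and C8g overlapped between the 2 sets. Choroid plexus markers (7 genes) varied widely inside every group. Their sum ran from 12.5 to 4274 FPKM in FFD-C, where its median was lowest, and from 42.6 to 19740 in CD-F, where it was highest. By mean over all libraries Ttr made up most of this sum (2219 FPKM), with the other genes at 1.57 to 64.05. Ttr is also on the list of liver markers. The part of liver or choroid plexus RNA in the C3 values was not tested.

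C2, the partner of C4 in the C3-cleaving enzyme, stood at or near 0 everywhere. Its row ran from 0 to 1.19 FPKM, was listed at 0 in 13 of 49 libraries, and was not tested. Group means lay between 0.148 (HFD-C) and 0.418 (HFD-F), with SDs of 0.180 to 0.426. The other 3 rows with its symbol had means of 0.054, 0.0365 and 0.0237 FPKM.

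The mark in the titles was tested over all groups. No member was called between XX and XY with limma, where 0.112% of rows were. An unadjusted p under 0.05 was found for 0 members and for 1322 of all 16029 rows. Cd47 had the smallest p, at -0.16 (SE 0.0846, adjusted p = 0.638). Its mean was higher in XY than in XX mice in 5 of 6 groups, from 46.4 ± 5.98 against 45.9 ± 7.14 FPKM in FD-C to 61.9 ± 18.2 against 42.7 ± 5.19 in HFD-F, and lower in FFD-C, 43.6 ± 11.1 against 55.0 ± 7.18 (SD, n = 4 each). In HFD-C the means were 62.2 ± 19.4 in 5 XY and 46.7 ± 8.06 in 4 XX mice, and the XY mean was 53.6 ± 3.52 without replicate 1. In FFD-C the XY mean was 49.1 ± 1.98 without replicate 3. The test of whether the difference of C4b between CD-F and CD-C depends on the mark did not pass (-0.29, SE 0.488, adjusted p = 0.926); in this interaction 0% of rows were called and 668 had an unadjusted p under 0.05.

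How the members varied together was read over all 49 libraries. The 3 C1q genes moved almost as one: Pearson r was 0.96 for C1qa with C1qb (Spearman rho 0.94), 0.96 for C1qa with C1qc (rho 0.93) and 0.95 for C1qb with C1qc (rho 0.94). Each has a permutation p of 1e-05, the smallest that 100000 resamples can give, or 9.33e-05 adjusted over 28 pairs. Without the 2 libraries farthest from the median r was 0.95, 0.93 and 0.93. Their ratios stayed near 1 in every group: C1qa over C1qb was 1.05 ± 0.064 and C1qa over C1qc 1.06 ± 0.067 (SD, n = 49).

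C3 with Serping1 was the only other of the 28 pairs that passed on log2(FPKM + 0.5) with the means of group and mark left in. Pearson r was 0.46 and rho 0.39 (permutation p = 0.00086 and 0.00645, adjusted 0.00602 and 0.0451), 0.41 without the 2 farthest libraries and 0.45 without the 4 libraries with Alb. On deviations from the means of group and mark C1qb with C3 passed too (r = -0.37, adjusted permutation p = 0.047), while C1qa and C1qc with C3 had -0.34 and -0.36 (0.0597 and 0.0548). With these means left in, the 3 pairs of C3 with a C1q gene had r of -0.26 to -0.29 (adjusted permutation p = 0.169 each). Without the 4 libraries with Alb r was -0.20 to -0.25. Cd47 with Sirpa, ligand and receptor, had r = 0.20 (rho 0.16, adjusted p = 0.325), and C1qa with C4b, neighbours in the cascade, r = 0.04 (rho 0.28, adjusted p = 0.872).

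**Figure D4:**
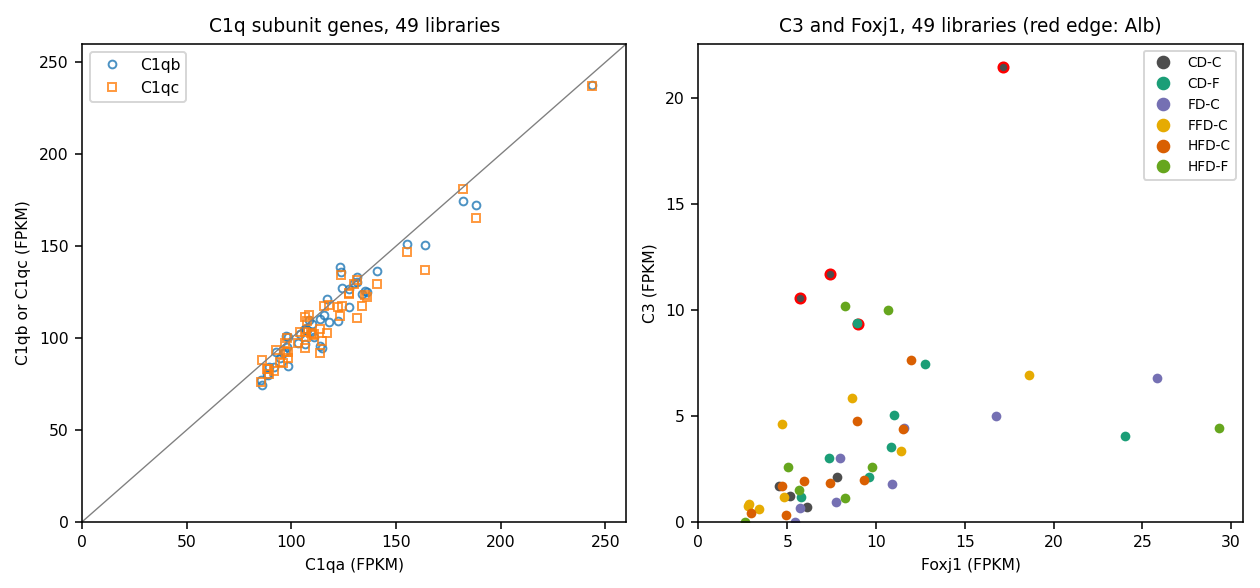
Left, C1qb (circles) and C1qc (squares) against C1qa in FPKM over 49 libraries, with the line of equality; the points lie along it up to CD-F replicate 8 at 244 FPKM of C1qa. Right, C3 against Foxj1 in FPKM by group; the 4 libraries with Alb (red edge) stand at 9.33 to 21.5 FPKM of C3.

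Genes outside the set with the most similar pattern were taken by r of deviations from group and mark over 49 libraries, among 11920 rows. After one another, the C1q genes were most like genes found in all cells, the ribosomal protein gene Rpl10 (r = 0.91 with C1qa), the ferritin gene Ftl1 (0.92 with C1qb) and the translation factor gene Eif3f (0.92 with C1qc). C3 was most like Ak7 (0.77), an axonemal kinase, Foxj1 (0.72), the regulator of motile cilia, and Sgsh (0.72), a lysosomal enzyme. Serping1 was most like matrix genes, Bgn (0.85), the proteoglycan biglycan, and Fbln1 (0.82), fibulin, and then Vstm4 (0.82). The nearest rows to C4b were Osbpl11 (0.69), Ehd2 (0.66) and Ncoa1 (0.65), to Cd47 Sgpp2 (0.64), Ric8b (0.61) and Stard4 (0.60), and to Sirpa Atmin (0.82), Dlgap4 (0.81) and Pip5k1c (0.79).

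C1qa was also set against each of 12 microglial markers, a choice made after the data were seen. Those that passed by Pearson r included Tmem119 (0.85, rho 0.74), Fcrls (0.73, rho 0.68), Aif1 (0.64, rho 0.51) and Csf1r (0.62, rho 0.62), with permutation p of 1e-05 and adjusted p of 2.4e-05 each. Without the 2 farthest libraries these were 0.76, 0.63, 0.51 and 0.57. On deviations from group and mark the same markers had r of 0.65 to 0.84 with C1qa, below the 0.91 of Rpl10. The fractalkine receptor Cx3cr1 (-0.14, rho 0.15), the purine receptor P2ry12 (0.25, rho 0.31), Sall1 (0.06, rho 0.17) and Trem2 (0.12, rho 0.35) did not pass by r. By rho, Itgam (0.44), Trem2 and P2ry12 also passed (adjusted permutation p = 0.00368, 0.0239 and 0.0472). The Trem2 values are those of its row listed at 0 in 13 libraries.

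The wider pathway was read from 6 lists of 92 genes besides the members, 68 of them high enough to test. In CD-F against CD-C 8 passed, 6 higher and 2 lower, or 11.8% where all rows gave 13.4%. The median difference of the 68 tested genes was 0.07, against 0.02 over all rows. In HFD-F against HFD-C 2 passed (1.67% of all rows), in HFD-F against CD-C 2, and 0 in the other comparisons of 2 groups. Complement components gave 0 of 4 tested in each comparison. Masp1, Cfp, Cfb and C1ra were tested, and 12 of 16, from C1s1 to the terminal components, lay under the filter. The row read for Cfp also names Elk1, so its value is uncertain for Cfp alone. In HFD-F against HFD-C, C1ra, a protease of the first step, had 0.46 and Cfb, of the alternative pathway, 0.22. Both had an unadjusted p under 0.05, like 2655 of all 16029 rows, and limma adjusted p of 0.286 and 0.298. Over all 6 groups the F test called 9 of the 68 (13.2%, against 12% of all rows).

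Of 8 complement receptors only 2 were high enough to test. Both were called higher in CD-F than in CD-C, where 4.54% of all rows were. Itgam and Itgb2 encode the chains of complement receptor 3, which binds C3 fragments on microglia. Itgam ran from 20.9 to 52.6 FPKM in CD-C (median 42.5) and from 46.8 to 80.1 in CD-F (median 54.2), a difference of 0.50 (SE 0.153, limma adjusted p = 0.0218). In HFD-F it ran from 54.0 to 72.7 (median 59.7), 0.61 above CD-C (SE 0.153, adjusted p = 0.0185) and 0.48 above HFD-C (adjusted p = 0.0762). Itgb2, named after its value was seen, stood at 7.92 ± 1.25 in CD-F and 6.06 ± 1.21 in CD-C (0.37, adjusted p = 0.042). The alternatives were not run for Itgb2. The Itgam calls rest on the controls: without the 4 libraries with Alb they were 0.37 and 0.48 with adjusted p of 0.202 and 0.203, and without CD-C replicate 2, at 20.9 FPKM the lowest, 0.38 and 0.49 (0.0787 and 0.063). With 1 mean per prefix they were 0.45 and 0.59 (0.12 and 0.222), and without CD-F replicate 4 the first was 0.45 (0.059). Itgam is also 1 of the 12 microglial markers whose sums are given above.

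Of the engulfment receptors and bridging molecules, 3 of 19 tested passed in CD-F (13.4% of all rows), each of them higher (4.54%). These were Lrp1, a receptor for calreticulin-tagged material (1330 ± 281 against 991 ± 106 FPKM; 0.40, limma adjusted p = 0.0155), Cx3cl1, the neuronal ligand of Cx3cr1 (72.6 ± 12.7 against 59.5 ± 3.301; 0.27, adjusted p = 0.0375), and, outside the naming rule, Itgb5, an integrin chain that binds apoptotic cells through Mfge8 (0.31, adjusted p = 0.042). The alternatives were not run for Itgb5. With the GC trend removed, Lrp1 had 0.29 (adjusted p = 0.131) and Cx3cl1 0.14 (0.298). Cx3cl1 was also lost without any of CD-C replicates 1, 2, 4 and 6 or CD-F replicates 1, 2, 4 and 8 (adjusted p up to 0.12). Fits of the CD groups alone gave adjusted p of 0.0701 for Lrp1 and 0.0984 for Cx3cl1, and means per prefix 0.051 and 0.0696. Cx3cl1 had 0.0615 with no filter on low values and 0.0667 without the 4 libraries with Alb. Receptor kinases for bridged phosphatidylserine did not pass; Axl, the nearest, had 0.29 (adjusted p = 0.0642).

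In the list of engulfment signalling, CD-F had 2 of 16 tested genes called lower (8.88% of all rows) and 1 called higher (4.54%). Crk, an adaptor that links engulfment receptors to Dock1, ran from 28.1 to 32.6 FPKM in CD-C and 20.8 to 29.5 in CD-F, with HFD-F at 22.7 to 27.2 and HFD-C at 28.6 to 32.2. The HFD groups did not overlap for this gene, which was named for its small p. How many of all rows separate these groups in the same way was not counted. Differences were -0.31 (SE 0.0565, limma adjusted p = 0.0003) and -0.26 (SE 0.055, adjusted p = 0.0121), and HFD-F against CD-C gave -0.24 (adjusted p = 0.0123). With 1 mean per prefix the first kept its call and the others had adjusted p of 0.18 and 0.211. HFD-F against CD-C was also not called without the 4 libraries with Alb (-0.23, adjusted p = 0.136), nor HFD-F against HFD-C with the shared prefixes as a fixed block (-0.20, 0.986). FD-C, a group with the offspring code C, ran from 22.3 to 30.02 FPKM of Crk and had -0.24 against CD-C (adjusted p = 0.0588). Tmem30a, the partner of the flippases that keep phosphatidylserine inside the membrane, was lower in CD-F (306 ± 95.6 against 430 ± 37.8 FPKM; -0.54, adjusted p = 0.00198), but -0.12 with the GC trend removed (0.392). Dock1, the exchange factor downstream of Crk, was higher in CD-F (11.6 ± 2.35 against 8.64 ± 1.26; 0.40, adjusted p = 0.0251), and was not called without the 4 libraries with Alb (0.33, adjusted p = 0.187) or without CD-C replicate 2 or 5 or CD-F replicate 3, 4 or 7 (0.0564 to 0.0662), nor in a fit of the CD groups alone (0.0589) or with means per prefix (0.154).

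Of the regulators, 1 passed, and of the partners none. Among 15 tested regulators, Vtn, a blocker of the terminal complex, was called higher in HFD-F than in HFD-C (20.7 ± 4.21 against 14.5 ± 2.52 FPKM; 0.49, limma adjusted p = 0.0463). That call was lost without any 1 of 11 libraries, HFD-C replicates 1, 2, 4, 6 and 9 and HFD-F replicates 3, 4, 5, 6, 7 and 8 (adjusted p up to 0.133). It was also lost with no filter on low values (0.0823), with the prefix as a random block (0.0635), in a fit of the HFD groups alone (0.0609), with the GC trend removed (0.114), with means per prefix (0.211) and with the shared prefixes as a fixed block (0.33, 0.986). Of 12 partners of Cd47 and Sirpa, 0 passed in any comparison of 2 groups. In HFD-F against HFD-C 4 had an unadjusted p under 0.05, like 2655 of all 16029 rows. The nearest were the integrin chain Itgb3 (0.42, limma adjusted p = 0.146) and the thrombospondin Thbs2 (0.49, adjusted p = 0.159). The list of partners includes Ptpn6, the phosphatase that Sirpa recruits, at 0.31 (adjusted p = 0.199).

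**Figure D5:**
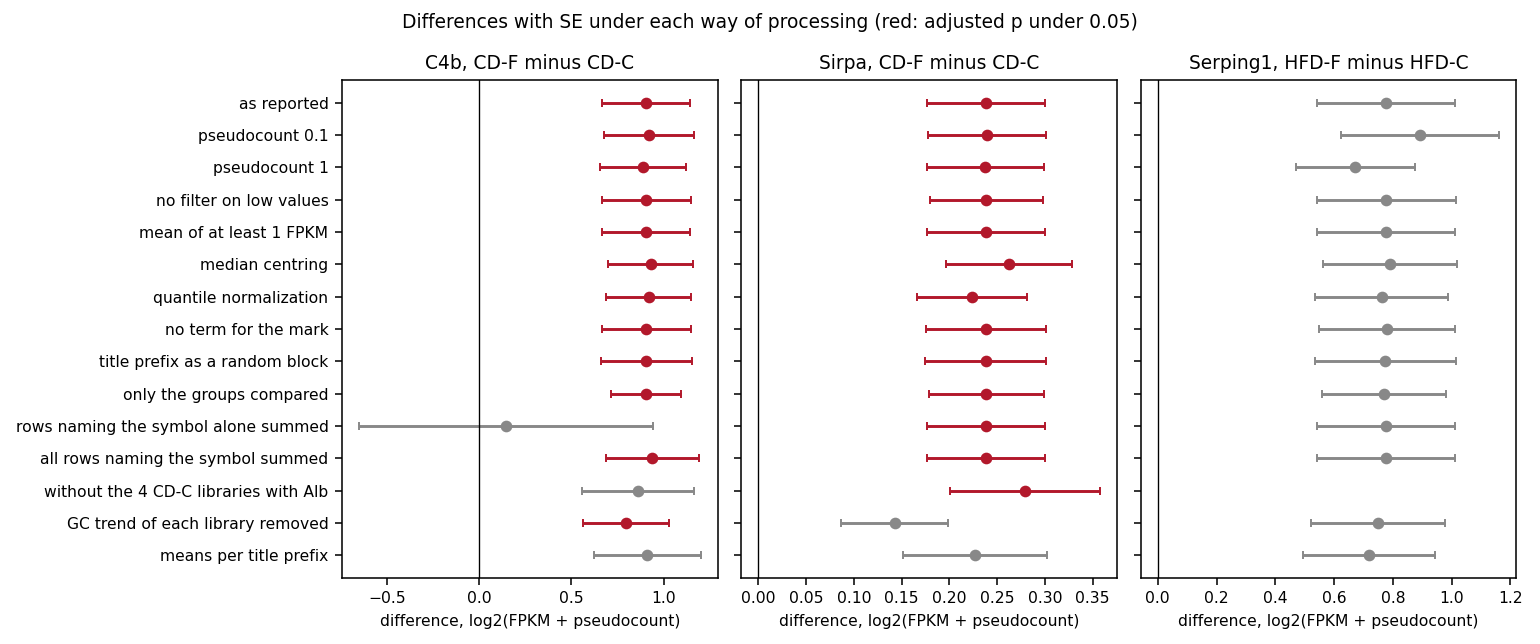
Difference with SE on the log2 scale for C4b and Sirpa (CD-F minus CD-C) and Serping1 (HFD-F minus HFD-C) under each way of processing; red marks an adjusted p under 0.05. C4b stays between 0.80 and 0.94 except for the row that names it alone (0.15), Sirpa is lowest with the GC trend removed (0.14), and Serping1 stays between 0.67 and 0.89 without a call.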

How the data were processed

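RNA of 49 hippocampi was extracted with phenol and chloroform and sequenced on the BGI-500 platform, per the labels' protocols. The values, as deposited by the authors, are FPKM in 1 table with a column for each library. Tools listed in the submitters' processing notes are StringTie 1.3.4d, HISAT2 and Trimmomatic 0.38, with the build GRCm38.p6. Read totals, strand and annotation were not used here, since no source states them. Low values lay within 0.05 of a whole multiple in 8.9% to 10.6% of cases, where an even spread gives 10%, so no reads were recovered and depth is unknown. Of the rows, 1146 name several genes, which can split or merge reads of near-identical or overlapping genes.

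Differences were tested with limma 3.58.1 in R 4.3.3 (lmFit, then eBayes with a trend) on log2(FPKM + 0.5), for the 16029 rows whose mean reached 0.5 FPKM, in 1 fit of all 49 libraries with a term for group and for the XX or XY mark. This scale understates changes of low genes. Two-sided p-values were adjusted over all rows (Benjamini-Hochberg). The fit was tested on simulated data. Correlations were taken on log2(FPKM + 0.5), with permutation tests (100000 resamples) in Python 3.11.15 with scipy 1.17.1. The mice are separate animals, but mice of a prefix may share a litter, which p-values from the fit do not allow for.

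All 9 members are described. From the wider lists, up to 4 genes in each direction with the smallest p were named in a comparison, and others are marked where named; for likeness, 3 rows a member. Members and lists were chosen with earlier results of these data known. Alternatives changed the pseudocount (0.1, 1), the filter, the scaling, the terms of the fit, the libraries, the row of a symbol and the GC trend (GC known for 92.8% of rows). The correlation of C1qa with 1 of the microglial markers is not reported here.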

Additional observations from a re-analysis of the deposited data

Results flagged for a closer look

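Each member was checked in each of the 6 groups for a library whose gap to its neighbour took an unusual share of the group's range (Dixon's 95% criterion). Chance flags about 1 in 20 groups, and 13 of 54 were flagged. CD-F replicate 8 was the highest of its group at 243.8 FPKM of C1qa, 237.4 of C1qb and 237.1 of C1qc, and HFD-F replicate 8 at 182 of C1qa, 174.3 of C1qb and 180.8 of C1qc; these 6 flags come from 2 mice and correlated genes. Serping1 stood apart at 6.512 FPKM in CD-C replicate 7, a library with Alb, and at 7.209 in CD-F replicate 7. C4b was lowest in FFD-C replicate 1 at 6.645 FPKM. Cd47 was highest in HFD-C replicate 1 at 96.39 FPKM and lowest in FFD-C replicate 3 at 27.08. C2, a gene near 0, stood at 0.9001 FPKM in FFD-C replicate 7 and 0.6025 in HFD-C replicate 3. The cause of these values was not tested.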

How the results depend on the processing

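Over the alternatives other than leaving out 1 library, 537 values of single genes kept their direction and their side of the threshold, 43 lost the call and 14 changed sign. C3 against CD-C changed sign without the 4 libraries with Alb, to 1.19 (CD-F), 0.44 (HFD-C), 0.37 (FD-C), 0.52 (FFD-C) and 0.71 (HFD-F). Cd47 changed sign in CD-F minus CD-C with median centring (0.004976), without those 4 libraries (0.0422) and with the GC trend removed (0.16), and in HFD-F minus HFD-C with the GC trend removed (0.047) and with means per prefix (0.0105). With the 3 shared prefixes as a fixed block, also added later, C1qa (-0.0211), C3 (-0.00951) and C4b (-0.0877) changed sign in HFD-F minus HFD-C. The interaction of C4b was 0.95 for the row that names it alone. C4b in CD-F was not called for that row (0.15), without the 4 libraries (0.86) or with means per prefix (0.91); Sirpa was not called with the GC trend removed (0.14) or with means per prefix (0.23). F over the groups fell short for C4b with no filter (3.89), with the prefix as a random block (3.71), for its own row (0.715), without the 4 libraries (3.10), with the GC trend removed (3.57) and with means per prefix (2.63). It fell short for Serping1 with no filter (3.84), with the block (3.74), with the GC trend removed (3.77) and with means per prefix (3.98), and for Sirpa with the last 2 (1.85 and 3.21).

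Counts of called rows moved by over 1.5 times in 29 cases and by less in 129. CD-F minus CD-C, 2151 rows, gave 1426 from those groups alone, 1234 without the 4 libraries, 850 with the GC trend removed and 957 with means per prefix. HFD-F minus HFD-C, 268 rows, gave 140 with no filter, 167 with the block, 14 with the GC trend removed, 8 with the fixed block and 0 with means per prefix. HFD-F minus CD-C, 432 rows, gave 287 with the block, 77 without the 4 libraries, 217 with the GC trend removed and 0 with means per prefix. FD-C minus CD-C, 32 rows, gave 78 with no filter, 1 with median centring, from those groups alone and without the 4 libraries, 8 with quantile normalization, 19 with no term for the mark, 13 with the block, and 0 with the GC trend removed and with means per prefix. HFD-C minus CD-C gave 26 with no filter, FFD-C minus CD-C 3 with no filter and 0 without the 4 libraries and with means per prefix, any difference 816 with the GC trend removed and 628 with means per prefix, and the interaction with the mark 8 without the 4 libraries.

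Leaving out 1 library at a time kept the calls of C4b (0.83 to 0.99) and Sirpa (0.22 to 0.26) in CD-F, and gave 0.68 to 0.87 for Serping1 in HFD-F. C3 ran from -0.46 to 0.10 in CD-F minus CD-C, positive without CD-C replicate 7, and from -0.0416 to 0.66 in HFD-F minus HFD-C, negative without HFD-F replicate 3. Cd47 ran from -0.0653 to 0.0209 in CD-F minus CD-C, positive without CD-C replicate 7 or CD-F replicate 5 or 7, and from -0.16 to 0.0201 in HFD-F minus HFD-C, positive without HFD-C replicate 1. F ran from 3.25 to 5.86 for C4b, 3.41 to 4.84 for Serping1 and 3.66 to 5.61 for Sirpa. Called rows ran from 72 to 372 (HFD-F minus HFD-C), 1 to 77 (FD-C minus CD-C), 0 to 5 (HFD-C minus CD-C), 1 to 7 (FFD-C minus CD-C), 247 to 486 (HFD-F minus CD-C), 0 to 2 (HFD-F minus CD-F) and 0 to 4 (interaction with the mark). The labels give no replicate numbers shared between groups, so blocks were made from the prefixes alone. Depth is unknown, so low values such as those of C2 carry an unknown counting error.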
